A study of Drosophila melanogaster with 14 samples.

Results

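A set of 10 germline genes was followed through RNA-seq of larval brain neural stem cells of Drosophila melanogaster. They were the PIWI protein genes AGO3, aub and piwi, the nuage genes vas, tej, krimp, qin and spn-E, and the germline differentiation genes bam and bgcn. The 10 genes were taken by symbol from a raw count table of 17868 genes, all 10 were found, and they were picked because some of them were higher in GAF RNAi. Their GAF RNAi values are therefore given as a description, without a test. Their values in the HDAC1 and Osa experiments were not used in the choice and were tested.

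The 14 libraries were polyadenylated RNA of cells labelled type II NSC, the neuroblasts that produce neurons and glia through intermediate progenitors, with 1k to 2k cells per library. There were 3 experiments, each with its own wild-type (WT) controls: GAF RNAi (3 libraries against 3 controls), HDAC1 RNAi (2 against 2) and Osa overexpression (2 against 2). GAF (gene Trl) binds GA-rich promoters, HDAC1 is a histone deacetylase, and Osa is a subunit of a SWI/SNF chromatin remodelling complex. The series was made to learn what these factors do in neural development. The driver of RNAi and overexpression, the larval age, the sex and the number of animals were not given in the sources used here. Series text speaks of an Osa knockdown, whereas the sample labels give overexpression, and osa RNA was higher in those libraries (148 ± 2.45 to 294 ± 8.12 CPM, SD, n = 2 and 2, log2 fold change 0.99 ± 0.13 SE, edgeR adjusted p = 0.0029).

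PIWI-interacting RNAs (piRNAs) are small RNAs that guide PIWI proteins to transposon transcripts. In the fly germline, Aubergine and Argonaute 3 cut sense and antisense transcripts in turn in nuage, a perinuclear granule built from Tudor-domain proteins and helicases, and so amplify the piRNAs. Piwi acts in the nucleus on transcription. Bag of marbles (bam) is the factor that turns the daughter of a germline stem cell to differentiation, and it works with benign gonial cell neoplasm (bgcn). These genes are known for the gonads, and neuroblasts are somatic cells.

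Total counts were 31788351 to 51505597 per library. Expression is given as CPM, the count of a gene divided by the size of its library and scaled within an experiment by TMM, so levels of different experiments are not on one scale. The 2 libraries labelled HDAC1 RNAi stood further apart than any other pair of replicates (median chi-square per gene 132 against 7.52 to 28.8). The knockdowns were not shown by the counts of their target genes. Trl was at 5.5 ± 0.79 CPM in the GAF controls and 5.21 ± 0.74 in the libraries labelled GAF RNAi (edgeR adjusted p = 0.843), but 77.8% of its exonic bases are shared with other genes on the same strand, so this count cannot check the knockdown. HDAC1 was at 70.9 and 79.2 CPM in its controls but 59.7 and 34.8 in RNAi replicate 1 and 2 (edgeR adjusted p = 0.576). Directions below are therefore those of libraries so labelled. All 7 genes listed as type II stem cell markers (dpn, pnt, btd, klu, grh, wor and mira) were detected in each experiment. So was ase, listed for type I neuroblasts and later intermediate progenitors. Its mean went from 35.3 to 90.1 CPM in GAF RNAi and from 61.5 to 213 CPM with Osa overexpression. In the HDAC1 experiment it went from 6.86 to 19.65 CPM, with overlapping groups. The cell type is that of the labels and was not tested.

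In the GAF controls the 10 genes spanned a wide range of levels per length of exon. spn-E, a DExH-box helicase gene, stood at 8.23 CPM per kb and krimp, a Tudor gene, at 6.03, and the ranges of the libraries of this pair overlapped. They were followed by bam at 3.23 and AGO3 at 3.02 CPM per kb, which overlapped as well, and by aub at 1.57, which overlapped neither AGO3 nor the gene after it. The other 5 genes were low: bgcn at 0.219, piwi at 0.144, tej at 0.139, qin at 0.0601 and vas at 0.00688 CPM per kb. Among these low genes only the step from qin to vas had ranges that did not overlap. In the libraries labelled GAF RNAi krimp led at 23.2 CPM per kb, followed by bam at 10.1, spn-E at 8.47 and AGO3 at 7.07, and krimp and bam each lay apart from the next gene.

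**Figure D1:**
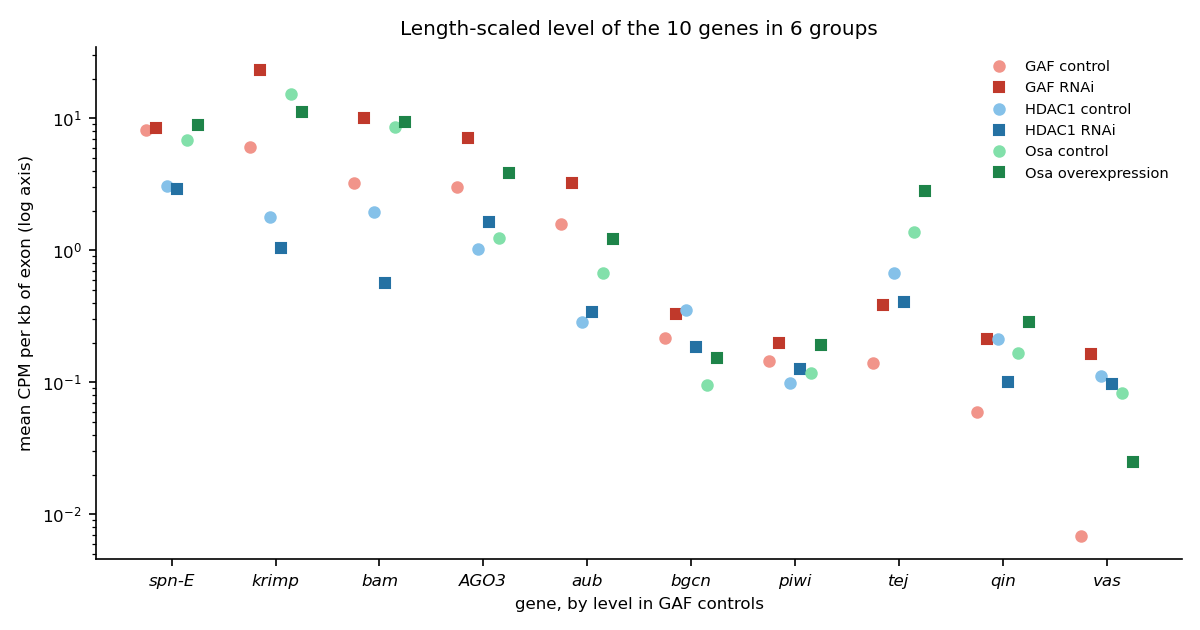
Level of each of the 10 genes in CPM per kb of exon (log axis) in the 6 groups. krimp, bam and spn-E head the order in the GAF and Osa groups, and vas has the lowest mean level in 5 of the 6 groups.

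The other controls kept some of this order. In the HDAC1 controls spn-E led at 3.06 CPM per kb, before bam at 1.95, krimp at 1.78 and AGO3 at 1.03. Of these, bam and krimp had overlapping ranges. In the Osa controls krimp led at 15.2 CPM per kb, before bam at 8.66, spn-E at 6.86 and tej at 1.37, with bam and spn-E overlapping. Order was read within each group, since the scale is that of its own experiment.

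The PIWI protein gene AGO3 (FBgn0250816, chromosome 3L from 23554593 to 23689640, plus strand) was higher in the libraries labelled GAF RNAi. It stood at 9.78, 9.14 and 9.89 CPM in the controls and at 20.1, 19.4 and 28 CPM in GAF RNAi, with no overlap, a log2 fold change of 1.23 ± 0.19. aub (FBgn0000146, chromosome 2L from 10997819 to 11001476, minus strand) stood at 4.69, 2.73 and 6.81 CPM in the controls and at 11.7, 6.55 and 11.2 CPM in GAF RNAi. The lowest aub value in GAF RNAi lay below the highest control, and the log2 fold change was 1.05 ± 0.33. piwi (FBgn0004872, chromosome 2L from 10982205 to 10987420, minus strand), the nuclear member of the family, stayed under 1.1 CPM: 0.613, 0.0763 and 0.640 CPM in the controls and 1.02, 0.572 and 0.258 CPM in GAF RNAi. Its groups overlapped (0.48 ± 0.78), and the value was −0.09 without RNAi replicate 1 and −0.05 without control replicate 2.

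AGO3 was also higher with Osa overexpression, at the border of the test. Its 4 libraries held 2.26 and 5.6 CPM in the controls and 7.80 and 16.7 CPM with overexpression, so the groups did not overlap but the 2 libraries of each group differed by more than 2-fold. The log2 fold change was 1.64 ± 0.51 and missed the threshold of 0.05 in edgeR (adjusted p = 0.051). It passed in 8 of 12 alternatives, with log2 fold changes over the 12 from 0.97 to 2.44 and adjusted p from 7.24e-05 to 0.197, and failed among others without control replicate 1 (adjusted p = 0.197) or overexpression replicate 2 (0.167). In HDAC1 RNAi AGO3 was at 3.13 and 3.43 CPM in the controls and at 5.04 and 5.42 CPM in the RNAi libraries, again without overlap (0.67 ± 0.50, edgeR adjusted p = 0.682). AGO3 was the 1 gene of the 10 whose libraries lay wholly above the controls in all 3 experiments. Of all tested genes 22%, 22.6% and 33.7% lay wholly above in GAF RNAi, HDAC1 RNAi and Osa overexpression. The share that did so in all 3 was not computed, and the GAF values were used in the choice of the genes.

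aub and piwi did not pass in the Osa or HDAC1 experiment. aub was at 1.36 and 2.70 CPM in the Osa controls and at 2.75 and 4.66 CPM with overexpression, just apart (0.86 ± 0.52, edgeR adjusted p = 0.264). In HDAC1 RNAi aub was under 1.2 CPM in all 4 libraries, from 0.775 and 0.967 to 1.16 and 0.888 CPM (0.23 ± 0.72, edgeR adjusted p = 0.949). piwi was at 0.278 to 0.451 CPM in the Osa controls and 0.367 to 0.805 CPM with overexpression (0.68 ± 0.90, edgeR adjusted p = 0.629). In the HDAC1 experiment piwi ran from 0.187 to 0.420 CPM in controls and from 0.190 to 0.579 CPM in RNAi (0.36 ± 1.06, edgeR adjusted p = 0.946). The SE of these piwi values is close to the size of a 2-fold difference.

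**Figure D2:**
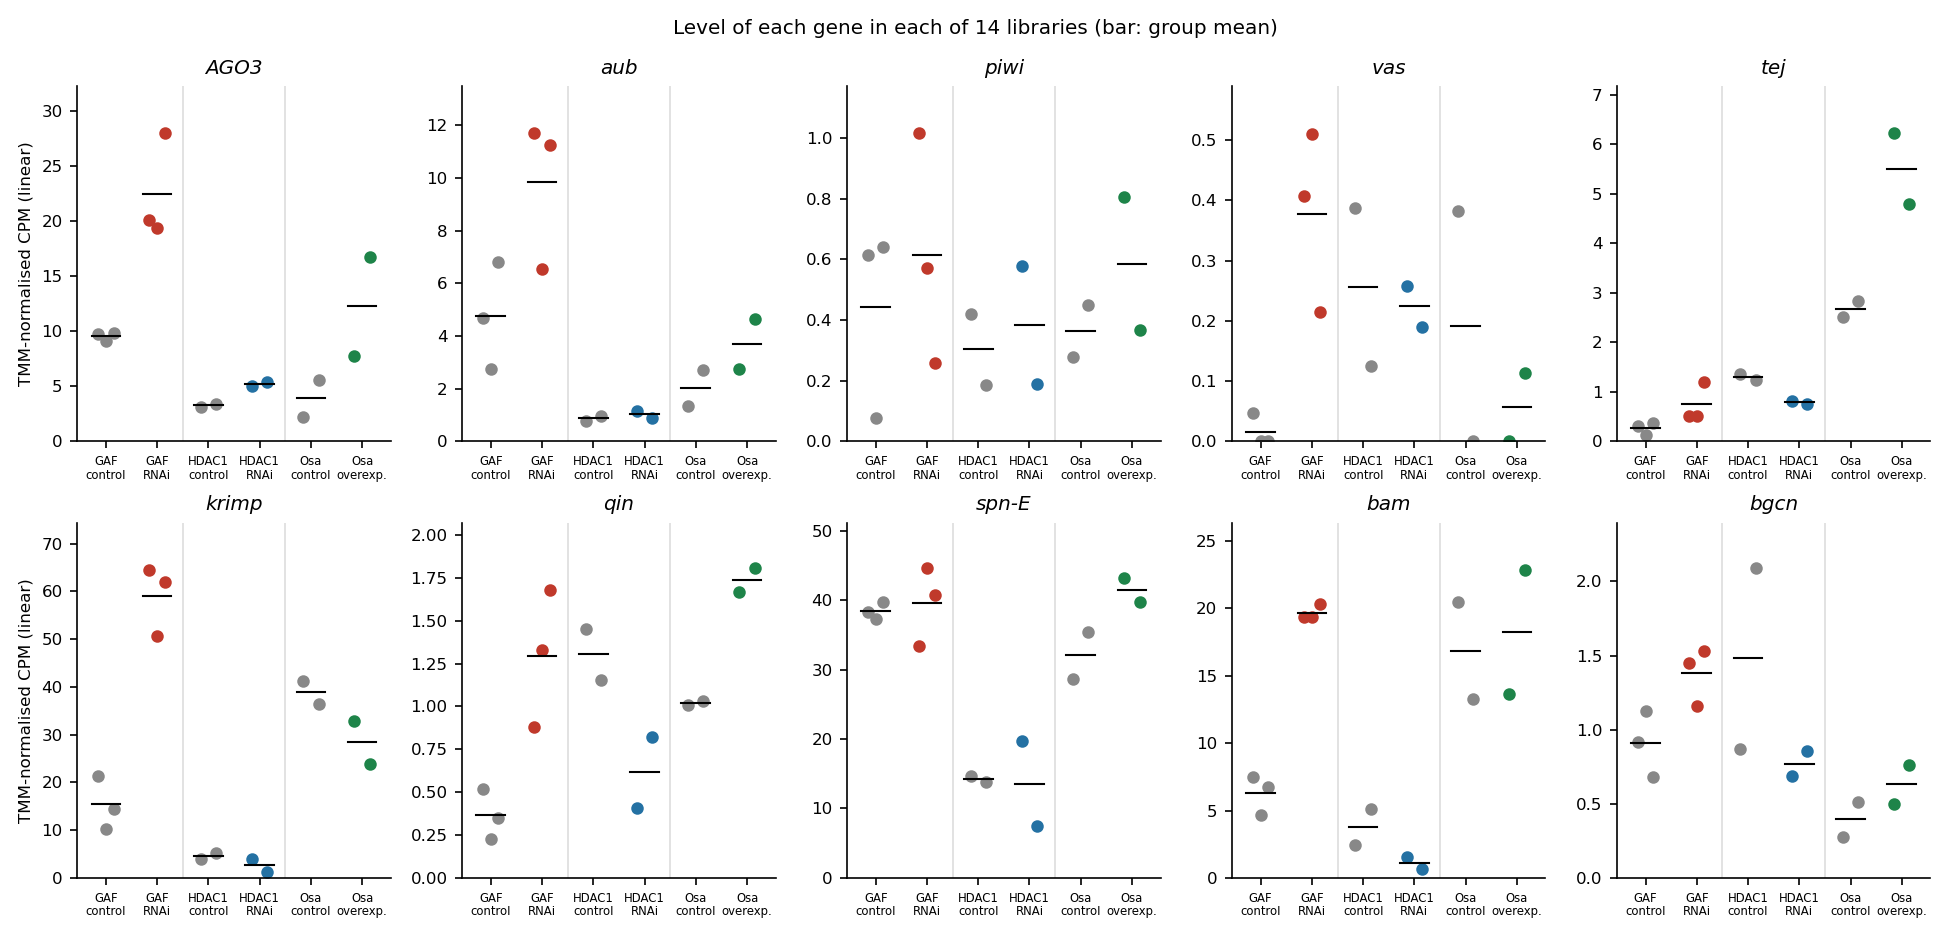
CPM of the 10 genes in each of the 14 libraries, 1 panel per gene, with points for libraries grouped by experiment and condition. Under GAF RNAi the points of AGO3, krimp, bam, qin and tej lie above all GAF controls, while those of spn-E and piwi mix with theirs.

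Among the nuage genes, krimp had the largest difference of those tested in GAF RNAi and went the other way with Osa. krimp (FBgn0034098, chromosome 2R from 16238103 to 16240722, minus strand), whose Tudor protein holds AGO3 and Aub in nuage, was at 21.3, 10.3 and 14.5 CPM in the GAF controls. It was at 64.5, 50.6 and 61.9 CPM in GAF RNAi, each above every control (1.94 ± 0.23). In the Osa experiment krimp was at 41.2 and 36.5 CPM in the controls and 33.0 and 23.8 CPM with overexpression, with every overexpression library below the controls (−0.45 ± 0.21, edgeR adjusted p = 0.144). In HDAC1 RNAi krimp went from 3.91 and 5.15 to 4.01 and 1.30 CPM, overlapping (−0.76 ± 0.62, edgeR adjusted p = 0.722).

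qin and tej were low genes that were higher in the libraries labelled GAF RNAi. qin (FBgn0263974, chromosome 3R from 18591027 to 18650137, plus strand) encodes a Tudor protein that keeps Aub paired with AGO3. It was at 0.519, 0.229 and 0.351 CPM in the GAF controls and 0.882, 1.33 and 1.68 CPM in GAF RNAi (1.82 ± 0.56), without overlap. tej (FBgn0033921, chromosome 2R from 14300103 to 14302353, minus strand), whose Tudor protein recruits Vasa to nuage, was at 0.306, 0.134 and 0.372 CPM in controls and 0.520, 0.510 and 1.21 CPM in GAF RNAi (1.46 ± 0.67), also without overlap. By edgeR adjusted p, aub (log2 fold change 1.05) was inside the threshold of the GAF comparison and tej (1.46) was not. aub was inside it in 9 of 14 alternatives. Both values are a description, since this comparison was used to pick the genes, and nothing is read from the side of the threshold. Without GAF RNAi replicate 3 the tej value was 0.92, and without control replicate 2 it was 1.1.

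Both genes had opposite orders in the HDAC1 and Osa experiments. qin was at 1.45 and 1.15 CPM in the HDAC1 controls and 0.408 and 0.824 CPM in RNAi (−1.09 ± 0.75, edgeR adjusted p = 0.653), and at 1.01 and 1.03 CPM in the Osa controls and 1.67 and 1.81 CPM with overexpression (0.77 ± 0.61, edgeR adjusted p = 0.396). tej was at 1.36 and 1.25 CPM in the HDAC1 controls and 0.815 and 0.761 CPM in RNAi (−0.72 ± 0.69, edgeR adjusted p = 0.776). It was at 2.50 and 2.83 CPM in the Osa controls and 6.22 and 4.80 CPM with overexpression (1.05 ± 0.40, edgeR adjusted p = 0.0849). In each of these 4 comparisons the libraries did not overlap, lower in HDAC1 RNAi and higher with Osa. Such an opposite separation was seen for 3.8% of 8877 genes and 2 of the 9 germline genes tested in both. The difference of the 2 responses, tested in 1 fit as the HDAC1 minus the Osa log2 fold change, was −1.79 ± 0.69 for tej (edgeR adjusted p = 0.789) and −1.90 ± 0.92 for qin (edgeR adjusted p = 0.831).

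vas, a DEAD-box helicase gene of nuage, was near 0 in the GAF controls. vas (FBgn0283442, chromosome 2L from 15061656 to 15074311, plus strand) had 2, 0 and 0 counts in the GAF controls and 18, 25 and 10 in GAF RNAi. It did not pass the filter of the GAF comparison. Summed, 53 against 2 counts gave a ratio of 27.2 (95% interval from 7.16 to 230), which covers counting error only, and 24.6% of the exonic bases of vas are shared with solo on the same strand. In HDAC1 RNAi vas was at 0.388 and 0.125 CPM in the controls and 0.257 and 0.190 CPM in RNAi (−0.18 ± 1.13, edgeR adjusted p = 0.975), and with library size only the value was 0.13. In the Osa experiment it was too low to test, with 11 counts in the controls and 4 with overexpression.

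spn-E (FBgn0003483, chromosome 3R from 15837419 to 15844415, plus strand) had similar levels in both GAF groups. It was at 38.3, 37.3 and 39.8 CPM in the GAF controls and 33.4, 44.7 and 40.7 CPM in GAF RNAi (0.04 ± 0.15). In the Osa experiment it was at 28.7 and 35.5 CPM in the controls and 43.1 and 39.8 CPM with overexpression (0.37 ± 0.18, edgeR adjusted p = 0.175). In HDAC1 RNAi the controls held 14.7 and 13.9 CPM and the RNAi libraries 19.7 and 7.48 CPM, on both sides of the controls (−0.07 ± 0.51, edgeR adjusted p = 0.978), and with library size only the value was 0.31.

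bam was higher in the libraries labelled GAF RNAi and lower in those labelled HDAC1 RNAi. bam (FBgn0000158, chromosome 3R from 25243039 to 25245109, minus strand) was at 7.45, 4.66 and 6.77 CPM in the GAF controls and 19.4, 19.4 and 20.3 CPM in GAF RNAi (1.65 ± 0.21), and the 3 RNAi values lay close together above every control. In HDAC1 RNAi it was at 1.52 and 0.698 CPM against 2.46 and 5.11 CPM in the controls, without overlap (−1.76 ± 0.65), and did not pass (edgeR adjusted p = 0.317, unadjusted p = 0.0211). Over the 12 alternatives this value ran from −2.41 to −1.13, and it passed in 1 of them, without HDAC1 RNAi replicate 1 (edgeR adjusted p = 0.029). With Osa overexpression bam was at 13.7 and 22.9 CPM against 20.4 and 13.3 CPM, the groups overlapping (0.12 ± 0.32, edgeR adjusted p = 0.823). Of the exonic bases of bam, 11.5% lie opposite CG11854, and the libraries do not mark strand.

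bgcn (FBgn0004581, chromosome 2R from 23853270 to 23858921, minus strand) was low, under 2.1 CPM in every library. It was at 0.919, 1.13 and 0.681 CPM in the GAF controls and 1.45, 1.16 and 1.53 CPM in GAF RNAi (0.60 ± 0.45), just apart. In HDAC1 RNAi it was at 0.687 and 0.856 CPM, below the controls at 0.872 and 2.09 CPM (−0.94 ± 0.73, edgeR adjusted p = 0.706). With Osa overexpression it was at 0.5 and 0.762 CPM against 0.278 and 0.515 CPM, overlapping (0.66 ± 0.87, edgeR adjusted p = 0.623). The HDAC1 minus Osa difference was −1.87 ± 0.74 for bam and −1.63 ± 1.12 for bgcn, with edgeR adjusted p of 0.789 and 0.93.

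**Figure D3:**
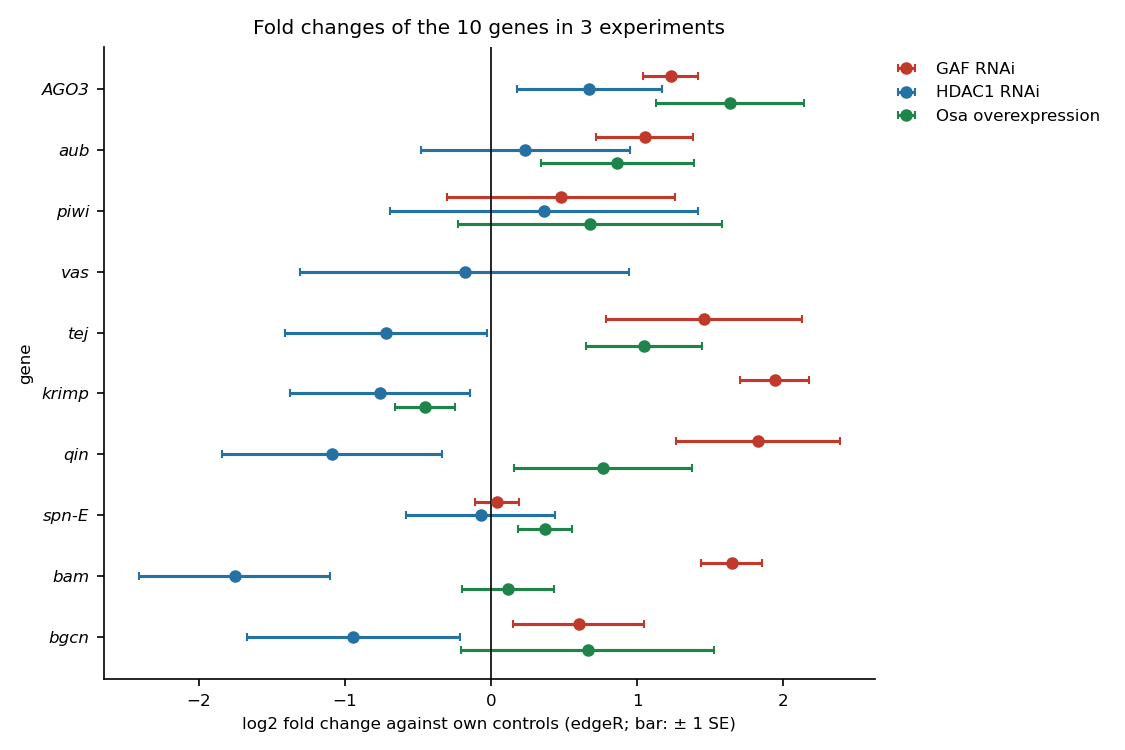
Log2 fold change of each gene against the controls of its own experiment, with SE bars, for GAF RNAi, HDAC1 RNAi and Osa overexpression. bam has 1.65 in GAF RNAi, −1.76 in HDAC1 RNAi and 0.12 with Osa overexpression, while spn-E lies near 0 in the first 2.

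For the GAF comparison, which was used to choose the genes, 5 of the 9 that passed the filter (AGO3, aub, krimp, qin and bam) had values past the threshold, beside 28.4% of 9055 genes, 12.5% higher and 15.9% lower. That count restates the choice of the genes, and nothing is read from it. In HDAC1 RNAi edgeR called 0 of 10, with 1 (bam) at a raw p below 0.05, and DESeq2 and limma-voom each called 0, against a background of 0.0971% of 10299 genes called. Their median log2 fold change was −0.45, where that of all genes was 0.06. In the Osa experiment edgeR called 0 of 9, with 2 (AGO3 and tej) at a raw p below 0.05, while DESeq2 called 1 (AGO3) and limma-voom 0. The background there was 21.1% of 9156 genes, 8.86% higher and 12.2% lower, and the medians were 0.68 for the 9 genes and 0.05 for all genes. For the HDAC1 minus Osa difference edgeR called 0 of 10, with 2 (tej and bam) at a raw p below 0.05, and the other 2 tools each called 0, against 0.00935% of 10695 genes. Counts and values moved when 1 library was left out. Without HDAC1 RNAi replicate 1, which leaves 1 RNAi library, the HDAC1 log2 fold changes were −2.41 (bam), −1.77 (krimp) and −0.91 (spn-E). The HDAC1 minus Osa differences were then −2.61 (bam) and −1.37 (spn-E). In the Osa experiment, leaving out 1 library gave 0.97 to 2.44 for AGO3 and −0.71 to −0.25 for krimp.

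Separation of the libraries gave a similar reading. In HDAC1 RNAi 4 of the 10 genes lay wholly below the controls (tej, qin, bam and bgcn) and 1 wholly above (AGO3), where 20.5% of all tested genes lay below and 22.6% above. With Osa overexpression 5 of 9 lay wholly above (AGO3, aub, tej, qin and spn-E) and 1 wholly below (krimp), where the shares of all genes were 33.7% and 32.1%. Sets of 2 libraries separate often, and nothing particular to the 10 genes is drawn from these counts. In the GAF experiment 6 of 9 lay wholly above and 0 below, beside 22% and 22.2% of all genes. The genes were picked because some were higher there, so the GAF count restates that choice and nothing is read from it.

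Markers of other cell types moved with the same libraries. In GAF RNAi 5 of 5 intermediate progenitor markers rose, their summed level going from 29.6 to 48.0 CPM in the controls to 80.5 to 94.6 CPM, and 6 of 6 neuron markers rose (125 to 257 CPM, then 414 to 648 CPM). With Osa overexpression 5 of 5 progenitor markers rose (195 to 215 CPM, then 554 to 834 CPM) and 2 of 6 neuron markers. In HDAC1 RNAi the sums went from 71.3 to 108 CPM to 174 to 412 CPM for progenitors and from 398 to 531 CPM to 963 to 1524 CPM for neurons. There edgeR called 0 of 5 progenitor, 0 of 6 neuron and 0 of 7 type II stem cell markers, with 5, 6 and 4 at a raw p below 0.05, while DESeq2 called 2, 4 and 3 and limma-voom 0 of each. The summed level of the 7 type II stem cell markers was 1291 to 1506 CPM in GAF controls and 1250 to 1417 CPM in GAF RNAi, with 2 lower. It was 1239 to 1263 against 363 to 496 CPM in the HDAC1 experiment and 1650 to 1813 against 1059 to 1063 CPM in the Osa experiment, where 1 rose and 3 fell. Fewer cells of a type and less RNA per cell cannot be told apart in such bulk samples, and the part of these markers in the results on the 10 genes was not tested.

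Of the 8 germ cell markers, some were near 0 and others were not. Over all 14 libraries osk had 3 counts and pgc 6, genes whose RNA marks the germ plasm and its pole cells, and in the GAF experiment both were at 0. otu had 71 counts, vas 104 and nos 131, while ovo had 1268 and zpg 1572. ovo was at 0.841 CPM in the GAF controls and 0.160 CPM in GAF RNAi, and at 8.51 CPM in the HDAC1 controls. zpg, a germline gap junction gene, was at 0.673 and 0.757 CPM in the GAF groups, 5.81 and 3.75 CPM in the HDAC1 groups and 5.16 and 5.51 CPM in the Osa groups. The summed level of the 8 germ cell markers was 359 to 394 CPM in the GAF controls and 299 to 346 CPM in GAF RNAi, nearly all of it Sxl, which somatic cells also express (376 ± 17.9 CPM in the controls). The 6 testis markers summed to 44.5 to 49.9 CPM in the GAF controls and 65.2 to 82.5 CPM in GAF RNAi, with 1 of 3 tested higher. The part of these markers in the results was not tested.

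The wider piRNA pathway was split in GAF RNAi. Of 37 further pathway genes 35 were tested, and 6 rose and 9 fell, 42.9% beside 28.4% of all genes (12.5% higher and 15.9% lower), with a median log2 fold change of −0.05 (all genes 0.00). Among genes of the amplification step, mael, a nuage and silencing factor, rose from 32.3 ± 9.50 to 133 ± 0.83 CPM (n = 3 and 3, 2.04 ± 0.19, edgeR adjusted p = 1.19e-05) and squ, a nuage gene, from 62.6 ± 7.17 to 140 ± 10.8 CPM (1.16 ± 0.13). The Tudor genes vret (95.8 to 50.6 CPM), papi (46.9 to 26), tapas (22.8 to 13) and tud (109 to 74.0) fell. Thus 2 of 9 other genes of this step rose and 4 fell, while krimp and qin stood higher.

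Biogenesis and source genes followed no single direction. Of 8 biogenesis genes tested 3 fell, 37.5% beside 15.9% of all genes lower: zuc, the nuclease that makes the ends of primary piRNAs (18.5 to 11.9 CPM), mino (34.2 to 16.8) and Hen1, the methyltransferase that protects them (88.5 to 47.7). The zuc call was lost in 3 of 14 alternatives. Of the exonic bases of mino 42.4% lie opposite another gene. Of 10 genes for transcription and export of piRNA sources 3 rose from near 0, rhi (0.832 ± 0.148 to 3 ± 1.88 CPM), moon (0.211 ± 0.110 to 1.84 ± 0.90) and TfIIA-S-2 (0.249 ± 0.276 to 1.65 ± 0.62), while del, which works with rhi, fell from 269 ± 13.8 to 133 ± 13.7 CPM (−1.02, edgeR adjusted p = 6.25e-05). The rhi libraries overlapped, and its call was lost in 4 of 14 alternatives, that of TfIIA-S-2 in 3. In nuclear silencing, 2 of 11 rose, mael and Nxt1 (0.45), and nxf2 fell (−0.49). The calls made up 40% of the source list and 27.3% of the silencing list, beside 28.4% of all genes. The Nxt1 and nxf2 calls were lost in 6 and 7 of 14 alternatives.

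mael, which rose in GAF RNAi, fell with Osa overexpression. There it fell from 52.2 ± 7.94 to 9.05 ± 0.66 CPM (n = 2 and 2, −2.53 ± 0.21, edgeR adjusted p = 0.000517), a call that held in all 12 alternatives. Of 32 further pathway genes tested there, 2 rose and 6 fell, 25% against 21.1% of all genes, with a median of −0.18. The number of these calls moved when 1 library was left out, and so did the number of all genes called. The falls besides mael were shu, a co-chaperone gene of PIWI loading (113 ± 1.91 to 47.8 ± 1.86 CPM, −1.25, edgeR adjusted p = 0.00194), del (188 ± 8.13 to 94.0 ± 2.41, −1), Hen1 (52.2 to 29.6), squ (61.4 to 40.9) and Boot (5.57 to 1.79). Those of squ, Hen1 and Boot were lost in 5, 4 and 5 of 12 alternatives. The rises were egg, a histone methyltransferase gene (16.2 ± 2.19 to 43.9 ± 17.1 CPM, 1.44, edgeR adjusted p = 0.0101), and Tdrd3 (24.5 to 48.4 CPM, lost in 5 of 12).

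**Figure D4:**
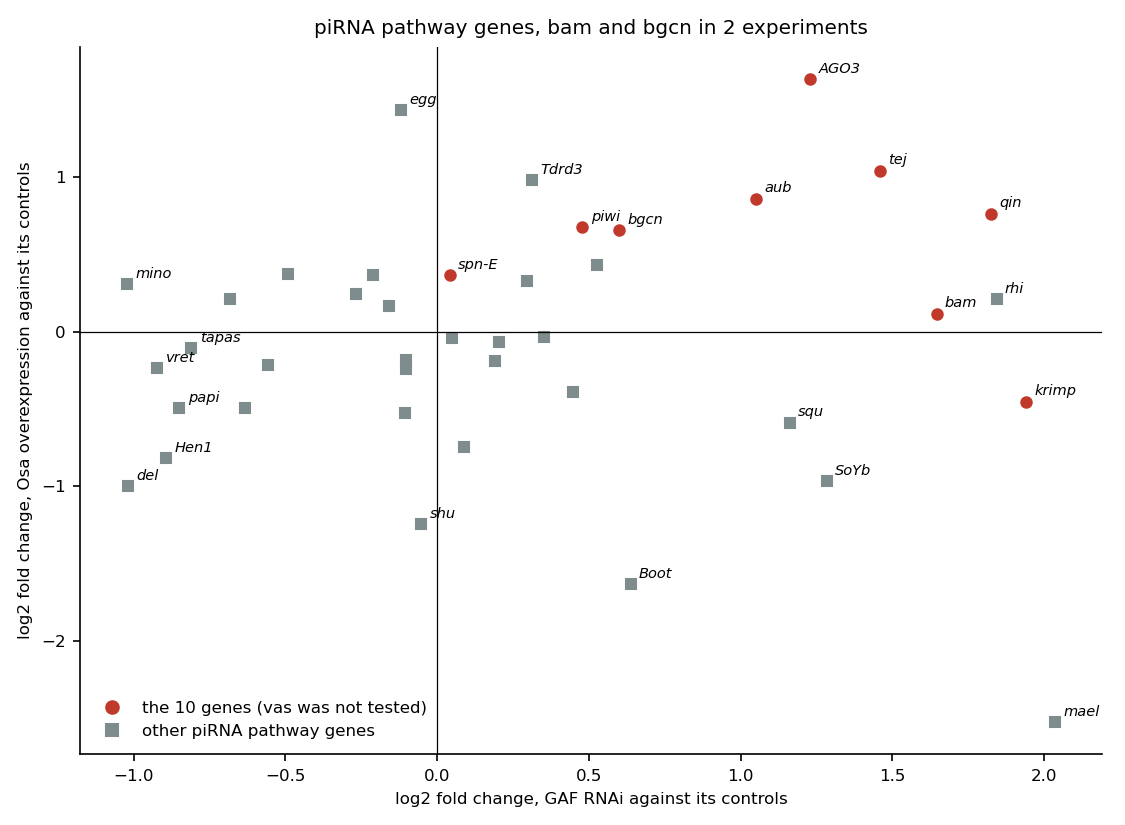
Log2 fold changes of piRNA pathway genes, bam and bgcn in GAF RNAi (x axis) and Osa overexpression (y axis). mael lies at 2.04 and −2.53, del at −1.02 and −1, and krimp at 1.94 and −0.45.

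In HDAC1 RNAi edgeR called 0 of 35 further pathway genes, with 4 at a raw p below 0.05, while DESeq2 called 2 and limma-voom 0. Their median was −0.21. The HDAC1 minus Osa difference was called for 0 of 35 in edgeR, with 4 at a raw p below 0.05, while DESeq2 called 1 and limma-voom 0. These counts moved when 1 HDAC1 RNAi library was left out, and so did the number of all genes called.

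A partner of bam and bgcn was among the differentiation genes that rose in GAF RNAi. Of 9 further genes tested on the germline stem cell differentiation list, 4 rose and 1 fell, 55.6% beside 28.4% of all genes. The 9 include dnd, whose role was not checked. tut, whose RNA-binding protein acts with Bam and Bgcn in the testis, rose from 11.4 ± 4.37 to 69.4 ± 4.38 CPM (n = 3 and 3, 2.61 ± 0.24, edgeR adjusted p = 1.98e-05), and brat, a translational repressor that also acts in neuroblasts, from 332 ± 63.4 to 920 ± 121 CPM. pum (161 to 234 CPM) and Rbfox1 (132 to 184) rose, and stwl fell (23.3 to 14.6). With Osa overexpression twin rose (62.2 to 98.2 CPM), dnd, listed by its symbol and with a role that was not checked, fell (4.69 to 1.32 CPM), and tut was at 2.10 and 4.09 CPM (0.96, edgeR adjusted p = 0.144). The twin and dnd calls were lost in 5 and 4 of 12 alternatives, and the stwl call in 3 of 14. In HDAC1 RNAi edgeR called 0 of 9, with 1 at a raw p below 0.05, and DESeq2 and limma-voom each called 0.

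Other germline lists were mixed. Of all genes, edgeR called 28.4% in GAF RNAi and 21.1% with Osa overexpression. Of 7 germ plasm genes tested in GAF RNAi, bru1 rose (0.326 to 1.41 CPM) and tud, gcl (45.0 to 24.1) and orb (35.9 to 15.1) fell. That was 57.1% of the list. Of 7 spermatocyte and testis genes can rose (27.8 to 49.1 CPM), which was 14.3%. Of 14 repressors of germline genes edgeR called 0, with 4 at a raw p below 0.05, while DESeq2 called 2 and limma-voom 0. With Osa overexpression the repressors mip120 (26.7 to 46.0 CPM) and Rbf (26.5 to 43.4) rose, and so did wun2 of the germ plasm list (2.70 to 7.07). Those calls were lost in 3 (mip120), 6 (Rbf) and 5 (wun2) of 12 alternatives, and in GAF RNAi that of bru1 in 3 of 14. Among 9 genes of the siRNA and miRNA pathways AGO2 fell in GAF RNAi (139 to 108 CPM), and loqs (47.6 to 78.0), drosha (17.7 to 35.4) and gw (176 to 239) rose with Osa overexpression. The AGO2 call was lost in 6 of 14 alternatives, and those of gw, drosha and loqs in 7, 5 and 3 of 12.

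Some neighbouring genes also differed in GAF RNAi. tej lies 8 bases from Ih, a channel gene that went from 0.915 to 4.34 CPM in GAF RNAi (2.25 ± 0.43). CG31224, which overlaps the end of qin on the other strand, was at 0.77, and TTLL4A, which overlaps the end of aub on the other strand, was at −0.80. ND-MLRQ lies 208657 bases from AGO3 (0.79) and ATPsynG 5806 bases from piwi (0.36). These 5 genes passed in edgeR, as did 28.4% of all 9055 genes tested there. The other tested neighbours did not pass, and only some of them are given below. Nothing particular to the neighbours is read from these values. bam lies 846 bases from RpS27, which was at 0.20 on the log2 scale in GAF RNAi, and bgcn lies 23 bases from gbb (0.06) and 146 bases from TBPH (0.27). aub and piwi both lie next to CG12253 (0.46). Of the 10 genes 3 lie on 2R, 3 on 3R, 3 on 2L and 1 on 3L.

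As a description over the 14 libraries, each taken relative to its own controls, some of the 10 genes went together. The highest correlations of log2(CPM + 0.5) were bam with krimp (r = 0.89), qin with tej (0.85), bam with qin (0.84) and aub with AGO3 (0.82), and the lowest was bgcn with piwi (−0.12). These libraries share controls and depth, and the GAF libraries are 6 of the 14. The 10 genes were picked because some were higher in GAF RNAi, so these correlations in part restate that choice. Nothing is read from them. Of 8179 genes compared, those most like AGO3 were CNPYb (0.89) and c(3)G (0.87), those most like bam were Nckx30C (0.94) and sisRNA:CR46364 (0.93), and those most like krimp were Ilk (0.95) and lncRNA:CR45276 (0.94). aub was most like CNPYb (0.87), tej like dgo (0.92), qin like lncRNA:CR43144 (0.93), spn-E like CG31342 (0.97), piwi like apolpp (0.88) and bgcn like CG7668 (0.89).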

How the data were processed

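The authors deposited a table of raw counts for 14 libraries. The genome dm6 and the tools featureCounts 2.0.3, SAMtools 1.6, HISAT2 2.2.1 and Trim Galore 0.6.10 are named in the submitters' processing notes. The annotation and counting options were not given in the sources used here. RNA amplification (Discover-sc WTA Kit V2) and library preparation (TruePrep DNA Library Prep Kit V2) are per the labels. Such libraries do not mark strand. Of counts from 1 to 49, 61.5% to 70.4% were even, so both mates may have been counted and counting intervals are too narrow. Replicates are not stated to be separate animals, so p reflects only how these libraries vary, which may be technical.

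Each experiment was fitted alone. Genes passing the edgeR filter (minimum count 10, minimum total 15) were normalised by TMM. The main test was edgeR's quasi-likelihood test (edgeR 4.0.16, R 4.3.3) with Benjamini-Hochberg adjustment over all genes at 0.05. SE is the size of the log2 fold change over the root of F. HDAC1 minus Osa was a contrast in 1 fit. Alternatives were RLE factors, library size only, no filter, DESeq2 1.42.0, limma-voom (limma 3.58.1), the replicate block, all 14 libraries in 1 fit, halved counts and each library left out. Applying them to the other pathway genes was decided after seeing the data. The tests were tried on simulated counts.

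The 10 genes and the 10 gene lists were chosen with earlier results of these data known. Named were the 10 genes, list genes past the threshold in HDAC1 or Osa, up to 4 per list in GAF with the smallest p, and the genes most like each of the 10 (mean of at least 1 CPM). Exceptions named after their values were seen are tapas, osk, pgc, Sxl, nos, armi and the neighbouring genes. Lengths, positions and shared exons are from the BDGP6 annotation of Ensembl 115, which may differ from the authors'. Deviations of same-numbered libraries had r from −0.14 to 0.15. With 2 libraries per group, same-numbered and differently numbered r are forced to be equal and opposite. Such values cannot decide whether numbers pair the libraries, and the main test used no pairing.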

Additional observations from a re-analysis of the deposited data

Results flagged for a closer look

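Some genes had libraries lying wholly above the controls in 1 experiment and wholly below them in another. The differences between GAF RNAi and the other experiments were not tested. Of 8657 genes 5.83% did so between GAF RNAi and HDAC1 RNAi, and 4 of 9 of the germline genes followed here. Between GAF RNAi and Osa overexpression the share was 11.1% of 8482 genes, and 1 of 9 of the germline genes. Because the 9 genes were chosen for their GAF values, these counts are a description.

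Against HDAC1 RNAi, the GAF and HDAC1 log2 fold changes were 1.65 and −1.76 (bam), 1.82 and −1.09 (qin), 1.46 and −0.72 (tej) and 0.60 and −0.94 (bgcn). Of the other list genes they were 1.16 and −0.97 (squ), −0.88 and 1.65 (wun2) and 0.82 and −0.84 (can).

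Against Osa overexpression, the GAF and Osa log2 fold changes were 1.94 and −0.45 (krimp), 2.04 and −2.53 (mael), 1.16 and −0.59 (squ) and 0.82 and −1.88 (can). The same held, with smaller values, for Nxt1 (0.45 and −0.39). In the other direction they were −0.61 and 1.00 (drosha), −0.88 and 1.39 (wun2), −1.02 and 0.31 (mino), −0.26 and 0.66 (twin) and −0.37 and 0.28 (AGO2).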

How the results depend on the processing

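No value of the 10 genes changed direction while it was called, nor did that of any list gene followed through the alternatives. Those followed were the named list genes called in their own experiment, without tapas and Rbfox1. In GAF RNAi 2573 genes were called, 1451 with all 14 libraries in 1 fit and 1593 to 3389 with 1 library left out (1593 without RNAi replicate 1, 1713 without control replicate 2). Of the 10 genes 5 were called, 6 without a filter, 4 with all 14 libraries in 1 fit and 3 to 5 with 1 library left out (3 without control replicate 2). Those counts restate how the genes were chosen. Of the further pathway genes 15 were called, 9 with all 14 libraries in 1 fit and 10 to 17 with 1 left out. In HDAC1 RNAi 10 genes were called. That was 0 with library size only, 309 without a filter, 294 by DESeq2, 2 by limma-voom, 345 with all 14 libraries and 37 with halved counts, and 36 to 3621 with 1 library left out (1627 and 3621 without RNAi replicate 1 and 2). Of the 10 genes 0 to 3 were called with 1 left out, the 3 without RNAi replicate 1 being bam (−2.41), krimp (−1.77) and spn-E (−0.91). Further pathway genes called were 0, but 1 without a filter, 2 by DESeq2, 4 with all 14 libraries and 0 to 9 with 1 left out. In Osa overexpression 1929 genes were called, 354 with all 14 libraries and 498 to 3535 with 1 left out (498 and 572 without control replicate 1 and 2, 3535 without overexpression replicate 2). Of the 10 genes 0 were called, but 1 (AGO3) with RLE factors, no filter, DESeq2 or halved counts, 3 (AGO3, tej and spn-E) with library size only, and 0 to 2 with 1 left out (1 without control replicate 2, and AGO3 and krimp without overexpression replicate 1). Further pathway genes called were 8, 4 with all 14 libraries and 3 to 13 with 1 left out (3 and 4 without control replicate 1 and 2, 13 without overexpression replicate 2). Library size only moved the median of all genes from 0.06 to 0.33 in HDAC1 RNAi and from 0.05 to 0.32 in Osa, where the share of calls that were higher went from 42.0% to 78.5%. For the HDAC1 minus Osa difference 1 gene was called, 118 without a filter, 48 by DESeq2, 0 by limma-voom and 1 to 1049 with 1 left out (1049 and 362 without HDAC1 RNAi replicate 1 and 2). Of the 10 genes 0 to 2 were called with 1 left out, the 2 without HDAC1 RNAi replicate 1 being bam (−2.61) and spn-E (−1.37), and of the further pathway genes 0, 1 without a filter, 1 by DESeq2 and 0 to 6 with 1 left out. The replicate block took same-numbered libraries as pairs, though whether they are pairs is not known. With it, 241 genes and 2 further pathway genes were called in HDAC1 RNAi. It called 1 of the 10 genes (AGO3) in Osa and 21 genes for the difference. The cause of these moves was not tested. Of values that were not called, those of piwi, spn-E and vas in HDAC1 RNAi, piwi and spn-E in GAF RNAi and bam in Osa changed sign with at least 1 library left out. For the HDAC1 minus Osa difference, so did those of krimp, piwi, spn-E and vas. Counts were lowest for vas, with 104 over the 14 libraries.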

Other observations

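The germline gene nos, a translational repressor of germ cells, had too few counts for a test and was picked after its values were seen. It had 2, 6 and 6 counts in the GAF controls and 42, 9 and 42 in the libraries labelled GAF RNAi. In none of the GAF controls did it reach the lowest of the RNAi counts.

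armi, a helicase gene of piRNA biogenesis, is listed at 0 in all 14 libraries. Of its exonic bases 99.6% are shared with CG46463 on the BDGP6 annotation, which is listed at 0 as well, so the zeros give no level for armi.

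Outside the germline lists, glia markers summed to 598 to 701 CPM in the GAF controls and 142 to 168 CPM in GAF RNAi, with 2 of 6 higher and 1 lower. That sum followed nrv2 (598 to 45.9 CPM), while Eaat1 went from 27.6 to 98.8 CPM and repo from 0.206 to 1.15 CPM. Fat body markers summed to 12.7 to 20.5 CPM in the GAF controls and 25.4 to 31.7 CPM in GAF RNAi. Nearly all of that sum was Lsp1gamma (15.3 and 28.2 CPM), the only 1 of the 5 that passed the filter. The others were near 0.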
